A study of Mus musculus with 3 samples.

Results

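The genes studied here encode the proteasome, its inducible catalytic subunits and its activators. They were taken by name: protein-coding genes of GENCODE M21 whose symbol starts with Psma, Psmb, Psmc, Psmd or Psme followed by a digit. This gave 45 genes out of 22028 protein-coding genes and 55536 gene identifiers in the tables. The rule itself uses no measured value, although genes, roles and lists were chosen with earlier results of these data known. By role, 19 belong to the 20S core particle and 25 to the particles and factors that regulate it. The remaining gene, Psmc3ip, carries a similar symbol but encodes a factor of meiotic recombination and no proteasome subunit.

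The proteasome degrades proteins that carry ubiquitin chains. Its core particle is a barrel of stacked rings: the outer alpha rings gate the entry, and the inner beta rings hold the catalytic sites named beta1, beta2 and beta5. The 19S regulator binds ubiquitin, unfolds the substrate with a ring of ATPases and feeds it into the core, while the PA28 and PA200 activators open the gate without needing ubiquitin. In cells exposed to interferon or inflammatory stimuli, newly made cores can take up the inducible subunits Psmb9, Psmb10 and Psmb8 at these sites in place of Psmb6, Psmb7 and Psmb5, which forms the immunoproteasome. This form is known in macrophages for supplying peptides to major histocompatibility complex class I.

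All values come from 1 group of 3 libraries, replicates 1, 2 and 3. Macrophages were grown from bone marrow of C57BL/6J mice and stimulated for 120 min with lipid A at 100 ng/ml. Lipid A is the part of lipopolysaccharide that TLR4 senses. RNA was then taken from the cytosol. Libraries started from 1 µg of total RNA depleted of ribosomal RNA, with fragments in a size range of 250 to 400 bp. Sex and age were not recorded, the labels name no knockout or transgene, and all 3 libraries share a donor identifier. The labels do not say whether the replicates came from separate animals or cultures, so the spread given here may be technical. No untreated, other time point or nuclear samples were analysed here, so the values are levels at a single condition and no response to lipid A was measured. In bulk RNA such as this, fewer cells expressing a gene and less RNA per cell cannot be told apart. The libraries held 31152786, 114031592 and 59693298 expected counts in replicates 1, 2 and 3, and 21.1 to 23.5% of TPM (a transcript level scaled by length and library) lay in nuclear-encoded protein-coding genes. All 8 macrophage markers checked were detected, with summed TPM of 5334 to 5854. Of 24 markers of other cell types 2 were detected, Cd4 at 18.2 TPM and S100a8 at 8.32 TPM, and the summed TPM of the 24 was 27.9 to 29.9; the neutrophil marker Ly6g was at 0.

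Of the 45 genes, 42 were detected, meaning a TPM of at least 1 in every library, against 37.7% of all protein-coding genes. At least 10 TPM in every library was reached by 36, against 13.4% of protein-coding genes. The median of the 42 was 18.3 TPM, and that of all 8294 detected protein-coding genes 6.86 TPM. The 45 genes summed to 1132 ± 18.2 TPM (SD, n = 3), which was 0.511% ± 0.0218 of the TPM of nuclear-encoded protein-coding genes.

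The 3 genes below the detection limit have known homes in other tissues or another process. Psma8, the alpha subunit of the testis proteasome, stood at 0.27, 0.33 and 0.22 TPM in replicates 1, 2 and 3. Psmb11, the beta5 subunit of thymic epithelium, had 0 counts in all 3 libraries. A count of 0 allows up to 0.0963, 0.0263 and 0.0503 CPM (counts scaled to the library total) in replicates 1, 2 and 3, from a floor of 3 counts and for counting error only. Psmc3ip stood at 0.15, 0.15 and 0.16 TPM.

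**Figure D1:**
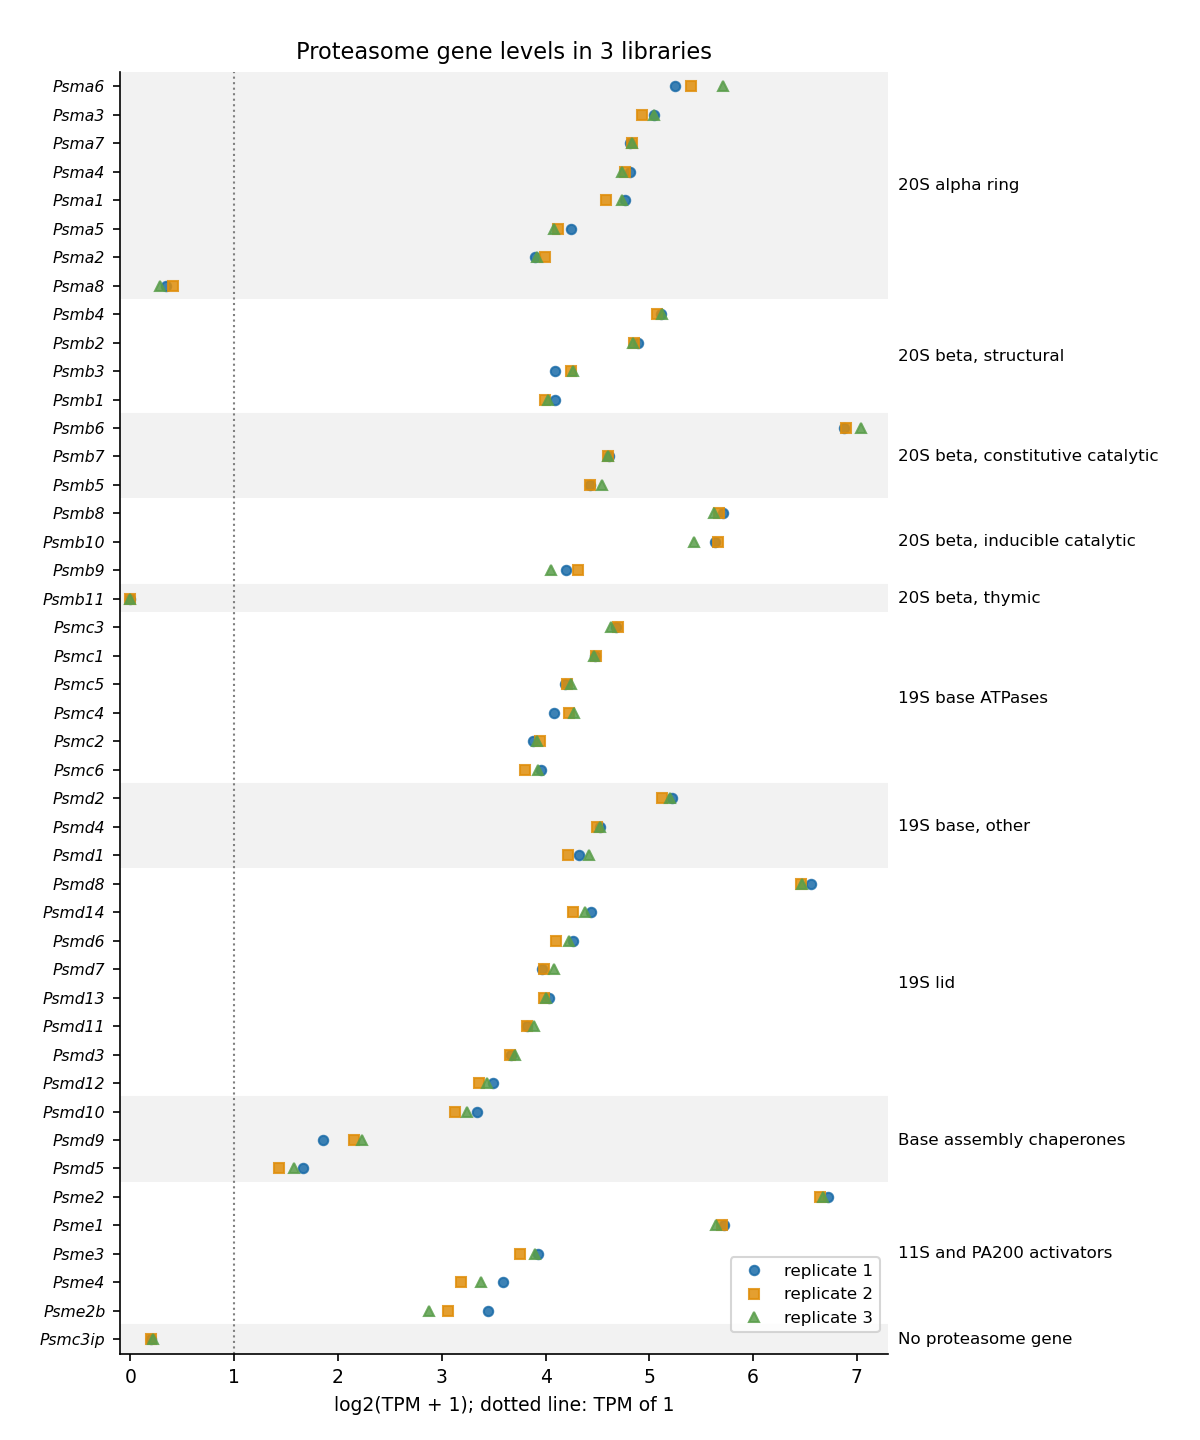
Each row is 1 gene and each point 1 library, on a log2(TPM + 1) axis, with genes grouped by role and ordered by mean level. Psmb6, Psme2 and Psmd8 stand to the right of all other genes, Psma8, Psmb11 and Psmc3ip lie left of the dotted line at a TPM of 1, and the 3 libraries of most genes lie close together.

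In the alpha ring, the 7 somatic subunits ranged from Psma2 at 14.3 ± 0.573 TPM to Psma6 at 43.1 ± 7.36 TPM (SD, n = 3). Psma6 measured 36.92, 41.19 and 51.25 TPM in replicates 1, 2 and 3, the lowest of which lay above every library of every other alpha subunit. Psma2 measured 13.93, 14.99 and 14.08 TPM. Psma3, Psma7, Psma4, Psma1 and Psma5 lay between, with means of 31.2, 27.5, 26.4, 24.9 and 16.8 TPM.

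The 4 structural beta subunits, which complete the inner rings without a catalytic site, ranged over a factor of 2.17. Psmb4 was highest at 33.71, 32.77 and 33.77 TPM, and Psmb1 lowest at 15.99, 14.97 and 15.23 TPM. Psmb2 and Psmb3 had means of 28.1 and 17.4 TPM. Across the 14 constitutive core genes, Psma1 to Psma7 and Psmb1 to Psmb7, the highest mean was 8.50 times the lowest. Without Psmb6 that factor was 3.01.

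Psmb6 was the highest of all 45 genes. This constitutive beta1 subunit, which cuts after acidic residues, measured 116.85, 117.91 and 130.91 TPM. Psmb7, the beta2 subunit that cuts after basic residues, measured 23.45, 23.24 and 23.24 TPM. Psmb5, the beta5 subunit that cuts after hydrophobic residues, measured 20.47, 20.53 and 22.37 TPM. Psmb6 thus stood above the other constitutive catalytic subunits in every library, and Psmb7 above Psmb5 in every library.

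The inducible subunits had another order. Psmb8, also called LMP7 and the inducible partner of Psmb5, measured 51.34, 49.94 and 48.30 TPM. Psmb10, also called MECL-1 and the partner of Psmb7, measured 48.50, 49.69 and 42.26 TPM. Psmb9, also called LMP2 and the partner of Psmb6, measured 17.38, 18.89 and 15.62 TPM. Psmb9 was the lowest of the inducible subunits in every library. The ranges of Psmb8 and Psmb10 overlapped, although Psmb8 was the higher in each library.

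Comparing partners site by site on the gene TPM, the inducible gene was the higher at beta5 and beta2 and the lower at beta1. Psmb8 exceeded Psmb5 by 1.20 ± 0.11 on the log2(TPM + 1) scale, and Psmb10 exceeded Psmb7 by 0.97 ± 0.12 (SD over 3 libraries). Psmb9 lay below Psmb6, with a log2 difference of -2.75 ± 0.21. As a share of the summed TPM of both partners, the inducible gene made up 70.2% ± 1.67 at beta5, 66.7% ± 1.91 at beta2 and 12.5% ± 1.63 at beta1. Each difference had the same sign in 3 of 3 libraries and was several times its SD. With 3 libraries, the exact two-sided sign-flip test gave p = 0.25 for each of 4 pairs compared, also after adjustment, which is the smallest p it can give.

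Summed over the sites, the inducible subunits held 114 ± 6.78 TPM and the constitutive ones 166 ± 8.84 TPM, a log2 ratio of -0.55 ± 0.16. That direction rested on the beta1 pair: with Psmb6 and Psmb9 left out, an alternative chosen after seeing the data, the log2 ratio was 1.12 ± 0.11.

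Much of the inducible subunits' RNA was assigned to transcripts that are not annotated as coding. Of the gene's TPM, protein-coding transcripts held 37.1% ± 1.07 for Psmb10 and 48.3% ± 1.35 for Psmb8, but 81.3% ± 3.83 for Psmb9. The values in replicates 1, 2 and 3 were 36.2, 36.9 and 38.3% for Psmb10 and 49.6, 46.9 and 48.5% for Psmb8. Among the constitutive partners, protein-coding transcripts held 82.4% ± 1.69 of Psmb6, and Psmb5-201 and Psmb7-201, both coding, held 99.2 and 99.5% of their genes. Psmb10, Psmb8 and the alpha subunit Psma3, at 50.5% ± 4.08, were the 3 of 42 detected members under 60% in every library. Among detected protein-coding genes 5.53% were. The median share was 98.3% over the 42 detected members and 97.2% over detected protein-coding genes.

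For Psmb8, at chr17:34197721-34201454 on the plus strand of mm10, a coding and a retained-intron transcript were about level. Psmb8-203, which is protein coding and 840 bases long, measured 24.19, 22.75 and 22.39 TPM. Psmb8-205, annotated as a retained intron and 1234 bases long, measured 23.74, 24.93 and 22.58 TPM. Their ranges overlapped. Psmb8-205 shares 799 bases with Psmb8-203. It adds 245 bases past the end of Psmb8-203 and an intron of 190 bases that Psmb8-203 splices out, so reads from either stretch count for it.

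For Psmb10, at chr8:105935735-105938444 on the minus strand, the leading transcript by TPM was a short one. Psmb10-203, a processed transcript of 426 bases, measured 20.16, 25.25 and 18.34 TPM. Psmb10-201, the protein-coding transcript of 1311 bases, measured 17.53, 18.33 and 16.17 TPM. Psmb10-203 was the higher in each library. By expected counts the order was the other way, with 220.2, 1240.55 and 419.02 counts for Psmb10-203 and 1063.91, 4618.82 and 1990.56 for Psmb10-201. TPM divides by the effective length, which in replicate 2 was 214 bases for Psmb10-203 and 1098 bases for Psmb10-201. The 2 transcripts share 378 bases, and 44 bases at the start of Psmb10-203 lie in an intron of Psmb10-201.

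For Psmb6, at chr11:70525367-70527858 on the plus strand, the retained-intron transcript Psmb6-202 held 17.1, 15.7 and 13.6% of the gene's TPM. It adds 107 intronic bases and 209 bases past the end of the coding Psmb6-201. The intronic stretches that help set these transcripts apart from the coding ones are shown 5′ to 3′ on the strand of the gene. They come from the GENCODE M21 transcript sequences. Reads that reach them bear on the split between coding and noncoding transcripts. So do reads past the coding end, a longer stretch than the intronic one in Psmb8-205 (245 against 190 bases) and Psmb6-202 (209 against 107). Capitals mark the bases next to an exon of the coding transcript: both ends of the whole Psmb8 intron at chr17:34199381-34199570, and the downstream end of the partly included introns of Psmb10 at chr8:105936982-105937025 and Psmb6 at chr11:70527072-70527178.
Psmb8-205 retained intron: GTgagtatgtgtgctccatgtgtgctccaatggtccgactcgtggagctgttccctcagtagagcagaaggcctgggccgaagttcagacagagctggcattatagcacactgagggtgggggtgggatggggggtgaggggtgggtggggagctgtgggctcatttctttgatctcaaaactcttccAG
Psmb10-203 intronic start: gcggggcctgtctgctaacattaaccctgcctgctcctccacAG
Psmb6-202 intronic stretch: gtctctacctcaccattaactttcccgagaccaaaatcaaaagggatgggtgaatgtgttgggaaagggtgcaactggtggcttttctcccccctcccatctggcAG

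Counting coding transcripts alone changed the picture at beta5 and beta2 but not at beta1. This alternative was chosen after seeing the data. The log2 difference between Psmb8 and Psmb5 became 0.18 ± 0.12, positive in 3 of 3 libraries, and the inducible share at beta5 53.3% ± 2.15. Between Psmb10 and Psmb7 the difference turned negative, to -0.40 ± 0.08, with Psmb10 the lower in 3 of 3 libraries and an inducible share of 42.8% ± 1.49. Between Psmb9 and Psmb6 it stayed at -2.75 ± 0.30, with a share of 12.4% ± 2.23. In a second quantification of the same reads the coding-only differences were 0.18 ± 0.10, -0.27 ± 0.05 and -2.75 ± 0.22 for the beta5, beta2 and beta1 pairs.

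Another reading placed all of a gene's counts on the effective length of its leading coding transcript, again an alternative chosen after seeing the data. Psmb8 then exceeded Psmb5 by 1.65 ± 0.11 and Psmb9 stayed below Psmb6, at -2.91 ± 0.16, both on the log2 scale. Psmb10 and Psmb7 differed by 0.05 ± 0.10, less than the spread between libraries. Their inducible shares at beta2 in replicates 1, 2 and 3 were 51.2, 52.3 and 48.9%, on both sides of equality. The order of Psmb10 and Psmb7 therefore depended on how transcripts were counted. Psmb6 was above Psmb9 and Psmb8 above Psmb5 in each of these readings. The margin of Psmb8 was small on coding transcripts, at 0.30, 0.18 and 0.06 in replicates 1, 2 and 3. Psmb8-205 held 57.0% of the gene's counts and has 435 bases that Psmb8-203 lacks. Placing its counts on the shorter Psmb8-203 can therefore overstate Psmb8.

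**Figure D2:**
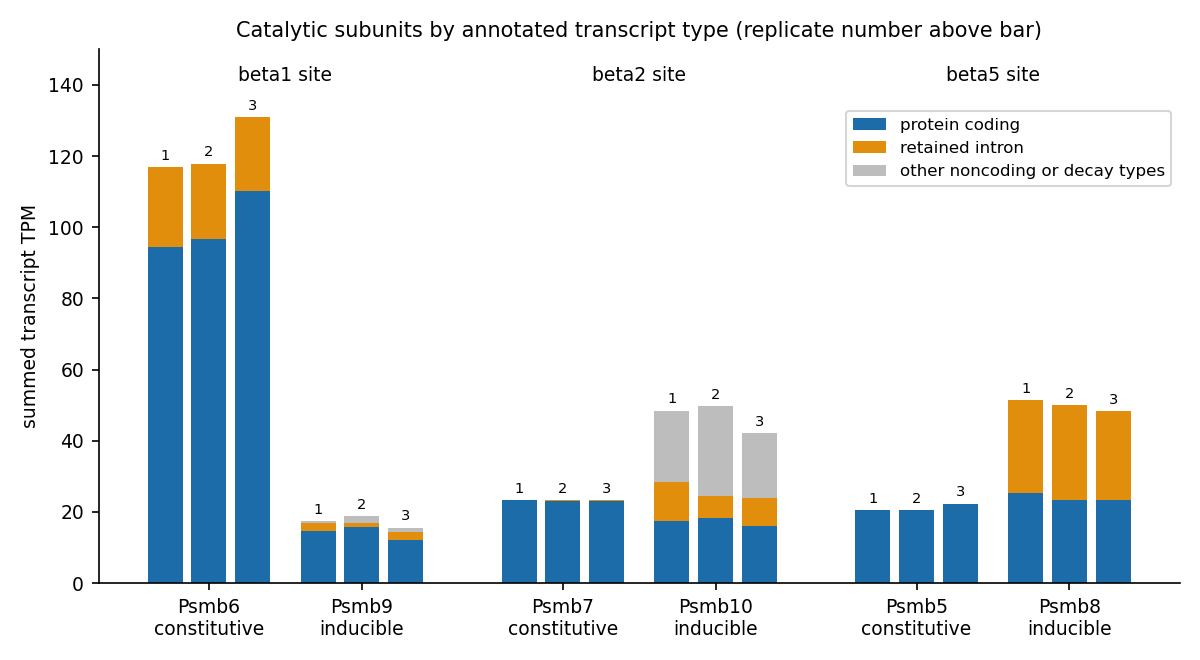
Bars give the summed TPM of a gene's transcripts in each library, split by annotated transcript type, with the replicate number above each bar. Coding transcripts fill nearly all of Psmb7 and Psmb5, most of Psmb6 and Psmb9, and under 60% of Psmb10 and Psmb8 in every library.

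The share of coding transcripts was similar in the second quantification for most genes. It was 43.7% ± 5.16 for Psmb10 and 48.5% ± 0.275 for Psmb8. Psma3 and Psmc6 moved most in the plot of both shares: Psma3 was at 33.9% ± 5.49 there, and Psmc6 at 65.9% ± 6.50 against 95.5% ± 0.257 in the main quantification. In Psma3 the coding Psma3-204 held 41.6, 50.4 and 43.9% and the retained-intron transcript Psma3-203 held 27.3, 30.4 and 27.9% of the gene's TPM. In Psme2, coding Psme2-208 held 50.3, 51.6 and 52.9%, and in Psmd13 the coding Psmd13-201 held 36.6, 38.0 and 41.5%. In Psma2, coding Psma2-201 held 54.6, 49.5 and 53.5% and coding Psma2-202 the other 45.4, 50.5 and 46.5%. Psmb10, Psmb8, Psma3, Psmd13, Psme2 and Psma2 were the 6 of 42 detected members whose leading transcript held under 60% in every library. Among detected protein-coding genes the share was larger, at 21.3%.

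**Figure D3:**
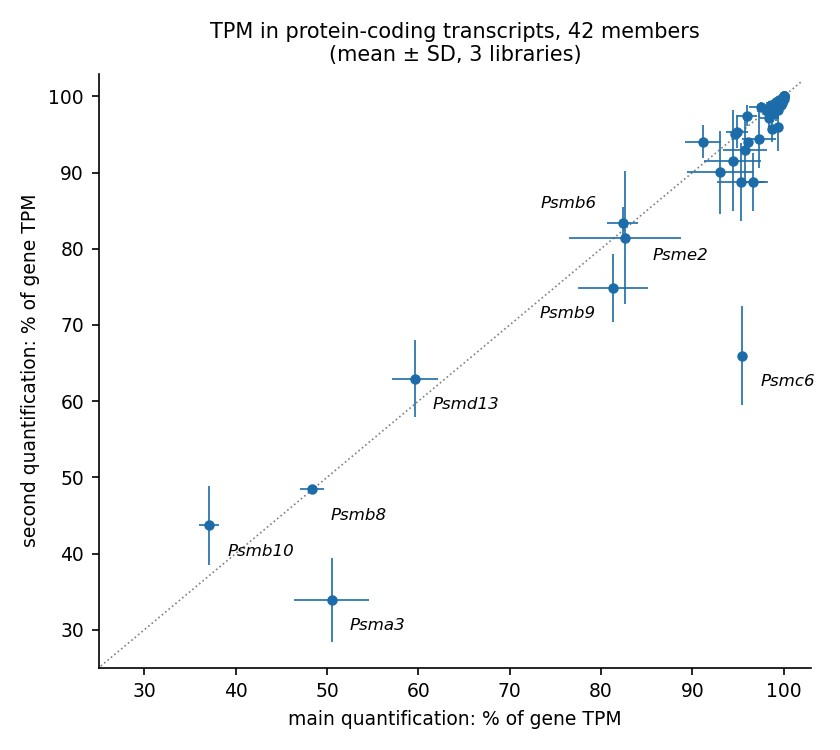
Each point is 1 of the 42 detected genes, with the share of its TPM in protein-coding transcripts in the main quantification on the x axis and in the second quantification on the y axis, both in percent as mean ± SD of 3 libraries. Most points lie in the upper right corner; Psmb10, Psmb8 and Psma3 lie lowest, and Psmc6 lies far below the line of equal shares.

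Among the regulators, the 6 ATPases of the 19S base were the most even group. Their means ran from Psmc6 at 13.9 ± 0.815 TPM to Psmc3 at 24.5 ± 0.584 TPM, a factor of 1.76. Psmc3 measured 24.68, 24.99 and 23.86 TPM and Psmc6 14.53, 12.98 and 14.19 TPM. Psmc1, Psmc5, Psmc4 and Psmc2 had means of 21.3, 17.6, 17.3 and 14.1 TPM. These proteins form the hexamer that unfolds substrates.

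The 3 other base subunits were at a similar level. Psmd2, a scaffold that also docks ubiquitin shuttle factors, was highest at 36.19, 33.84 and 35.67 TPM. Psmd1, the other large scaffold, was lowest at 19.02, 17.63 and 20.45 TPM. The ubiquitin receptor Psmd4 had a mean of 21.9 TPM.

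In the lid, which removes ubiquitin before degradation, Psmd8 stood far above the other subunits. It measured 93.39, 87.33 and 87.97 TPM, and its coding transcript Psmd8-202 held 98.3% of that. Psmd14, the deubiquitinating enzyme of the lid, followed with 19.6 ± 1.23 TPM. Psmd12 was lowest at 10.30, 9.28 and 9.85 TPM. Psmd6, Psmd7, Psmd13, Psmd11 and Psmd3 had means of 17.4, 15.1, 15.1, 13.4 and 11.8 TPM. The 17 subunits of the 19S particle that the symbol rule takes ranged over a factor of 9.13 in mean TPM, and over 3.59 without Psmd8.

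The 3 chaperones that assemble the base and are left out of the finished particle were lower than every 19S subunit. Psmd10, known as gankyrin, measured 9.15, 7.74 and 8.46 TPM. Psmd9 measured 2.63, 3.46 and 3.70 TPM, and Psmd5 2.16, 1.69 and 1.98 TPM. Their means lay below the lowest 19S subunit, Psmd12, although Psmd10 and Psmd12 were closest.

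Psme2 was the highest of the regulator genes by gene TPM. It encodes the beta subunit of PA28, the activator linked to class I peptide supply, and measured 104.35, 98.85 and 100.90 TPM. Psme1, the alpha subunit of PA28, measured 51.55, 51.08 and 48.99 TPM. The values of the pair did not overlap, with a log2 difference of -0.99 ± 0.05 between Psme1 and Psme2, and the pair is among the 4 tested above with an exact p of 0.25. On coding transcripts alone the difference was -0.85 ± 0.13. There Psmd8 had a higher mean than Psme2, at 88.5 ± 2.79 against 83.9 ± 8.37 TPM. In replicate 1 Psme2 was still the higher, at 93.51 against 91.76 TPM. By gene TPM, the mean log2(TPM + 1) of Psme1 and Psme2 exceeded the median of the 17 subunits of 19S by 1.97 ± 0.06. The nuclear activators were lower: Psme3, or PA28 gamma, had 13.6 ± 0.921 TPM and Psme4, or PA200, had 11.03, 8.09 and 9.37 TPM.

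Psme2b was the lowest of the activators, at 9.90, 7.34 and 6.33 TPM. It is a near copy of Psme2 on another chromosome, at chr11:48945354-48946190. In replicates 1, 2 and 3 it had 336.29, 1050.08 and 438.49 expected counts, and Psme2 had 3599.71, 13803.92 and 6774.51. The fractions of the 2 genes complement each other in every library. The deposited counts thus appear to split reads between the 2 genes, so the level of Psme2b is uncertain and that of Psme2 is affected too. The coding sequences of Psme2-201 and Psme2b-201, 693 and 717 bases long, were identical at 680 of 717 aligned positions, or 94.8%, with 13 differing bases and 24 gap positions. The longest identical run was 264 bases, longer than the shortest fragments of the size range. In replicate 2 the effective length of Psme2b-201 was 623.7 of 837 bases. That implies a mean fragment in the counting that is shorter than the size range and than the run. The gap-free 120-base window with the most differences holds 3 and is shown, with differing bases in capitals, because so few positions tell the copies apart. It covers coding bases 400 to 519 of Psme2 and 424 to 543 of Psme2b.
Psme2: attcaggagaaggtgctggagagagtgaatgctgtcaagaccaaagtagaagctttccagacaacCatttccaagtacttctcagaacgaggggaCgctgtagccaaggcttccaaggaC
Psme2b: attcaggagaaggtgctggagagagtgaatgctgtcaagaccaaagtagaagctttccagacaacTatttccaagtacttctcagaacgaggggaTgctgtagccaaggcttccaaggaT

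Set against each other, core genes were higher than regulator genes by the median. The difference of list medians was 0.67 ± 0.06 on the log2(TPM + 1) scale over 19 core and 25 regulator genes. By list means it was 0.24 ± 0.04 and, with the 17 subunits of 19S alone as regulator, 0.49 ± 0.09. On coding transcripts alone it was 0.48 ± 0.03. In summed TPM the lists were close, at 559 ± 9.58 for the core and 573 ± 14.4 for the regulators. The core holds 17 detected genes of 19 and the regulators 25 of 25.

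The libraries differed little in TPM for these genes. The median coefficient of variation was 4.62% over the 42 detected members and 10.1% over all detected protein-coding genes. Among genes at 10 TPM or more in every library, it was 3.61% for 36 members and 8.41% for 2952 protein-coding genes. In 36 of 42 members the highest library was less than 1.2 times the lowest, against 46.3% of detected protein-coding genes. The members with the largest SD of log2(TPM + 1) were Psme2b at 0.29, Psma6 at 0.24 and Psme4 at 0.20.

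That evenness depended on the scale. On CPM scaled with the trimmed mean of M values (TMM), the median coefficient of variation was 8.12% for the members and 7.93% for detected protein-coding genes. Among genes at 10 TPM or more in every library, the members had the larger median, 8.30% against 7.26%. On the TMM scale replicate 1 was the lowest library for 36 of 42 members, compared with 3527 of 8294 detected protein-coding genes. The median log2 ratio of replicate 1 to the mean of the other libraries was -0.15 for the members and -0.03 for those genes. In TPM it was 0.04 and 0.14 instead, so on either scale the members were lower in replicate 1 relative to the typical gene. Replicate 1 was also the shallowest library and had the largest share of TPM in nuclear-encoded protein-coding genes, 23.5% against 21.1 and 22.0%, and the part of either in this shift was not tested.

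**Figure D4:**
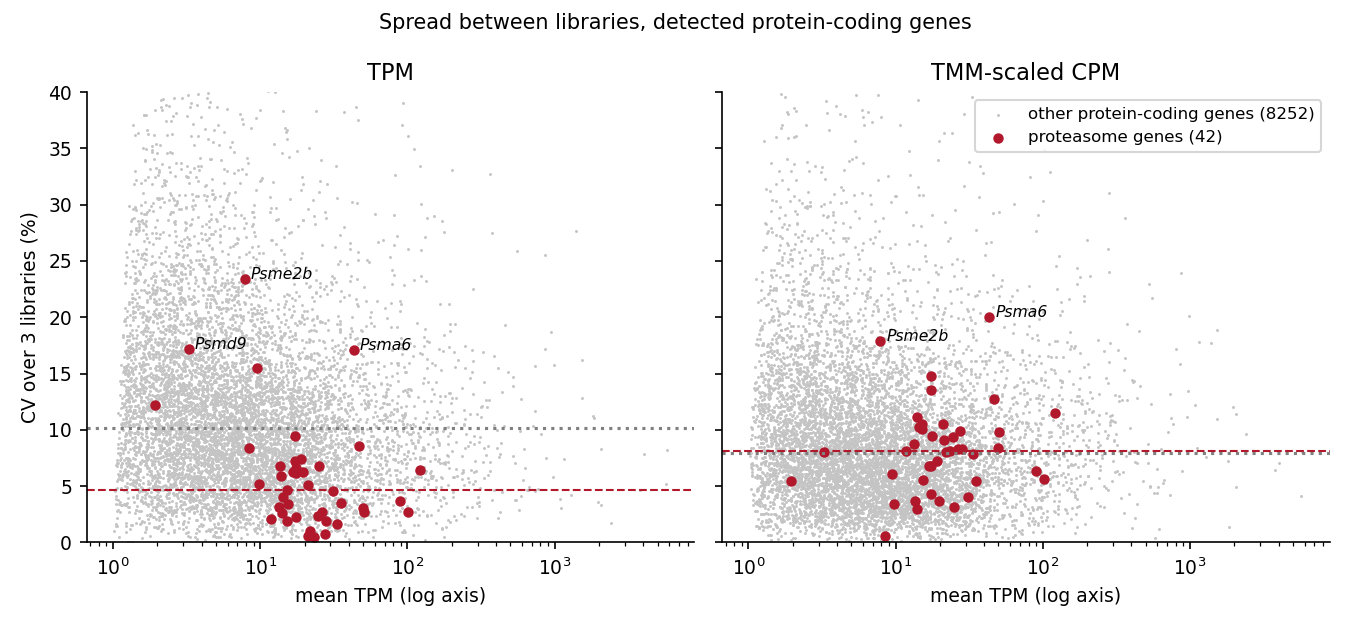
Each point is a detected protein-coding gene, with mean TPM on a log x axis and the coefficient of variation over 3 libraries in percent on the y axis, in TPM on the left and in TMM-scaled CPM on the right. Proteasome genes are in red with a dashed line at their median, all detected genes have a dotted median line, and 90 genes on the left and 74 on the right lie above the axis limit of 40%. The red median lies well below the dotted one on the left and next to it on the right.

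Counting error alone did not cover the spread for most members. In a Poisson dispersion test with TMM scaling and Benjamini-Hochberg adjustment over 14037 genes, 33 of 44 members tested passed an adjusted p of 0.05, against 62.1% of all genes tested. Tested among nuclear-encoded protein-coding genes alone, 34 members passed, against 61.5% of those genes. Without replicate 2, the deepest library, 22 of 44 members passed, against 37.9% of all genes tested. By class, 16 of 18 core and 17 of 25 regulator genes passed, among them all 6 main catalytic subunits. The share that passes depends on depth as well as spread, so a gene with more counts passes with a smaller difference. When a biological coefficient of variation of 0.1 was allowed, 0 of 44 members passed and 2 had an unadjusted p below 0.05, while 13.4% of all genes tested passed after adjustment. The biological coefficient of variation that edgeR estimated had a median of 0.104 over the members, 0.131 over nuclear-encoded protein-coding genes and 0.151 over all genes tested.

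Psma6 had the widest spread of any detected member on the TMM scale. It measured 52.2, 69.9 and 78.4 CPM in replicates 1, 2 and 3, a factor of 1.50, while 99.8% of its TPM lay in 1 coding transcript, Psma6-201. Its rank order of libraries was the same in TPM.

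Genes that work with the proteasome but lie outside the symbol rule were also measured. All 47 genes of 5 lists were detected, against 37.7% of protein-coding genes. These lists were chosen with earlier results of these data known, so their detected share only describes them. In the dispersion test 42 of the 47 passed, against 62.1% of all genes tested, and 2 did so with a biological coefficient of variation of 0.1 allowed, against 13.4%. In the list of core assembly chaperones, Pomp, which matures the core, was highest at 32.64, 35.41 and 42.57 TPM. The other 4 chaperones of that list ranged from Psmg3 at 1.91 TPM to 7.35 TPM.

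The 13 genes of class I peptide supply had a median of 63.3 TPM. B2m, the light chain of class I molecules, was highest at 1527 ± 196 TPM, and Tapbpl, a peptide editor related to tapasin, was lowest at 4.80 ± 0.175 TPM. The peptide transporter genes Tap1 and Tap2, which neighbour Psmb9 and Psmb8 on chromosome 17, had 31.4 ± 1.38 and 13.1 ± 1.25 TPM. Tap1 lies between them: 495 bases separate it from Psmb8, and its exons share 212 bases with Psmb9 on the opposite strand. The strand setting of the counting is not given in the sources used here, so reads in the shared 212 bases cannot be assigned with certainty. The same holds for 405 exon bases that Psmb7 shares with Nek6, 215 that Psmc3 shares with Slc39a13 and 14 that Psme1 shares with Emc9.

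Among 7 proteasome partners, Sem1, a small lid subunit, was highest at 26.7 ± 2.27 TPM and the ubiquitin ligase Ube3c lowest at 3.28 ± 0.535 TPM. Of 8 genes of transcriptional control, Irf1, an interferon-responsive factor that drives inducible subunit genes, was highest at 207 ± 4.94 TPM, and the protease Ddi2, which activates the product of Nfe2l1, was lowest at 4.24 ± 0.632 TPM. Nfe2l1, the factor that raises proteasome genes when degradation is blocked, measured 28.33, 28.71 and 33.10 TPM. Of 14 genes of ubiquitin and substrate delivery, the shuttle factor gene Ubqln4 was lowest at 4.97 ± 0.370 TPM.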

How the data were processed

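Cytosolic RNA of 3 libraries was quantified by the authors with 2 methods. Per the file headers, the authors deposited expected counts, TPM and FPKM per gene and transcript, and each transcript's percent of its gene, in the column layout of RSEM. They also deposited transcript TPM in the column layout of kallisto, which was summed per gene and is called the second quantification; 77 protein-coding genes had no value there. The listings name mm10 and GENCODE M21. What aligner, tool versions and strandedness applied is not given in the sources used here.

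Genes, roles and lists were chosen with earlier results of these data known. Every member is accounted for by role. Values per library are given for the 6 main catalytic subunits, Psme1, Psme2, the highest and lowest member of each role group by mean TPM and the 3 members with the largest SD of log2(TPM + 1), and the highest and lowest gene of each list are named, with Tap1, Tap2, Pomp and Nfe2l1. A result that this rule calls for is not reported here. Leading transcripts are named for the catalytic subunits and where they held under 60% in every library. Shfm1, 1 listed symbol, was not matched; its current symbol is Sem1.

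Pairs were compared as log2(TPM + 1), with a pseudocount of 1 that understates differences of low genes, by an exact sign-flip test. For dispersion, expected counts were rounded, genes with a mean count of at least 10 were kept, and scaling came from edgeR 4.0.16 (R 4.3.3); the test was checked on simulated data. DESeq2 1.42.0 size factors, other pseudocounts, FPKM, the second quantification, other filters and single libraries left out were alternatives. Python 3.11.15 with scipy 1.17.1 was used for the rest. Sequences are those of GENCODE M21 transcripts.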

Additional observations from a re-analysis of the deposited data

How the results depend on the processing

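No contrast of conditions was possible because the 3 libraries form 1 group, and genes were compared in pairs within each library. The direction turned in 3 cases: Psmb10 minus Psmb7 became -0.40 on protein-coding transcripts and -0.27 on those of the second quantification, and the inducible to constitutive log2 ratio became 1.12 without Psmb6 and Psmb9. That ratio was -1.38 on protein-coding transcripts and -1.40 on those of the second quantification. Core minus regulator, 0.67 by medians, was 0.50 in the second quantification, 0.74 with undetected members left out, 0.24 by list means, 0.52 without the chaperones, 0.49 against 19S subunits only, 0.48 on protein-coding transcripts and 0.36 on those of the second quantification. PA28 minus 19S, 1.97, was 1.82 in the second quantification, 1.86 against the mean of 19S subunits, 1.81 on protein-coding transcripts and 1.69 on those of the second quantification. The members' share of nuclear-encoded protein-coding TPM, 0.511%, was 0.281% of expected counts. The count of members that varied beyond counting error, 33, against 62.1% of all genes tested, was 0 with a biological coefficient of variation of 0.1 allowed (2 at an unadjusted p below 0.05), against 13.4%. It was 35 with DESeq2 size factors, against 62.4%, and 41 with no filter, against 43.4%. Leaving out 1 library at a time gave 22 to 36 such members: 27 without replicate 1, against 45.3% of all genes tested, 22 without replicate 2, the deepest library, against 37.9%, and 36 without replicate 3, against 49.5%. It gave 1.16 to 1.26 for Psmb8 minus Psmb5, -2.83 to -2.63 for Psmb9 minus Psmb6 and 0.93 to 1.04 for Psmb10 minus Psmb7. The number of detected members ranged from 36 at a limit of 10 TPM to 44 at 0.1 TPM. The causes of these shifts were not tested. Alternatives on coding transcripts, on the leading coding transcript and without Psmb6 and Psmb9 were chosen after seeing the data. Depth limits Psmb11, which had 0 counts; Psma8 and Psmc3ip had counts in every library and were measured below 1 TPM.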

Other observations

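Exons of 14 of the 45 genes overlap an exon of another annotated gene, and in 6 of these the other gene had a mean of at least 1 TPM. Besides Psmb9 and Tap1, Psmb7 shares 405 exon bases with Nek6 on the opposite strand, which had 11.0 ± 0.383 TPM, and Psmc3 shares 215 with Slc39a13, which had 4.13 ± 0.592 TPM. Psmc3ip shares 385 with Mlx, which had 5.31 ± 0.607 TPM, while Psmc3ip had 0.153 TPM. Psme1 shares 14 bases with Emc9, at 3.11 ± 0.318 TPM. Psme2b shares 41 bases on its own strand with 9930111J21Rik1, at 12.8 ± 1.78 TPM.

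The 4 annotated pseudogenes whose symbols fit the naming rule, Psmb5-ps, Psmb6-ps, Psmb6-ps2 and Psmb7-ps2, had 0 counts in every library except for 1.17 expected counts of Psmb7-ps2 in replicate 3.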
